A study of Homo sapiens with 9 samples.

Results

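PIK75, a small-molecule inhibitor of class I phosphoinositide 3-kinases (PI3K), was compared with its vehicle in H69, an established human small cell lung cancer line. The comparison sets the 3 arrays of cells kept for 24 h with 100 nM PIK75 against the 3 arrays of cells kept for 24 h with DMSO, which makes 6 of the 9 arrays of the series. All arrays come from this single line, grown in complete medium with serum, and 2 ug of total RNA went into each labelling. The other 3 arrays are of cells given TGX221, another PI3K inhibitor, for the same time at a labelled dose of 1 mM, whose unit could not be checked. TGX221 values are set beside those of PIK75 in places, and the doses differ. The treatment field of the controls reads none, while the protocol names DMSO. Nothing in the labels says that the arrays of a group came from separate cultures, so p-values rest on the variation from array to array, which may be technical. Members were the 19775 genes with a probe set annotated to exactly 1 gene symbol (41091 of 54675 probe sets), each represented by its brightest such probe set.

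The cells carried the markers of their label. Of 16 measured neuroendocrine markers of small cell lung cancer the median control level was 11.54 on the log2 scale, against 8.21 over all genes. The lineage factor INSM1 stood at 13.05, the granule protein CHGA at 12.81 and the adhesion molecule NCAM1 at 12.33 (means of 3 control arrays). The median control level of the marker lists of lymphocytes, myeloid cells, fibroblasts, endothelium, squamous epithelium and hepatocytes lay between 6.58 and 7.52.

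Class I PI3K makes a membrane lipid that recruits the kinase AKT. AKT in turn activates the growth kinase mTOR, which promotes translation, sterol synthesis and the making of the hypoxia factor HIF1, and it holds FOXO transcription factors out of the nucleus. Lipid phosphatases remove the signal. PIK75 is known to act on some other kinases as well, among them CDK9, the kinase of the elongation factor P-TEFb that releases paused RNA polymerase II. Small cell lung cancer cells of the neuroendocrine kind make peptide hormones, biogenic amines and the vesicle machinery that secretes them.

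With PIK75, 11947 genes were called (60.4% of all genes tested), 4982 lower (25.2%) and 6965 higher (35.2%), at an adjusted p below 0.05 by limma with Benjamini-Hochberg adjustment over all 19775 genes. The falls were the larger changes: 705 genes fell at least 2-fold (3.57%) and 48 rose at least 2-fold (0.243%). At 1.5-fold these counts were 2062 (10.4%) and 292 (1.48%). A change is given throughout as the PIK75 mean minus the control mean on the log2 scale, so that 1 is a doubling. In RNA from bulk cells, fewer cells of a kind and less RNA per cell cannot be told apart. The median change over all genes was 0.09, percentiles 1 and 99 were -1.41 and 0.66, and the extremes lay at -2.83 and 3.86. In 12793 genes (64.7%) the 3 PIK75 values lay wholly on one side of the 3 control values, above them in 7571 (38.3%) and below in 5222 (26.4%). For TGX221 against the same controls, 239 genes were called (1.21%), and in a direct contrast of the treatments as labelled 4412 genes were lower with PIK75 than with TGX221 (22.3%) and 4967 higher (25.1%).

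The direction of change went with the level of a gene. Genes were split by control level into 4 bins of equal size. In the brightest bin (9.57 to 14.8) 53.6% were called lower and 20.3% higher, with a median change of -0.20. In the dimmest bin (4.43 to 6.77) 3.1% were lower and 33.5% higher, with a median of 0.12. The second bin (6.77 to 8.21) had 10.9% lower, 50.2% higher and a median of 0.17. The third (8.21 to 9.57) had 33.1% lower, 36.9% higher and a median of 0.05. The files give no detection calls, so dim genes could not be told apart from background. List medians are therefore given with the list's median control level where that lies in the brightest bin, and also with the probe sets of each gene averaged where that moves the median by over 1.5 times.

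**Figure D1:**
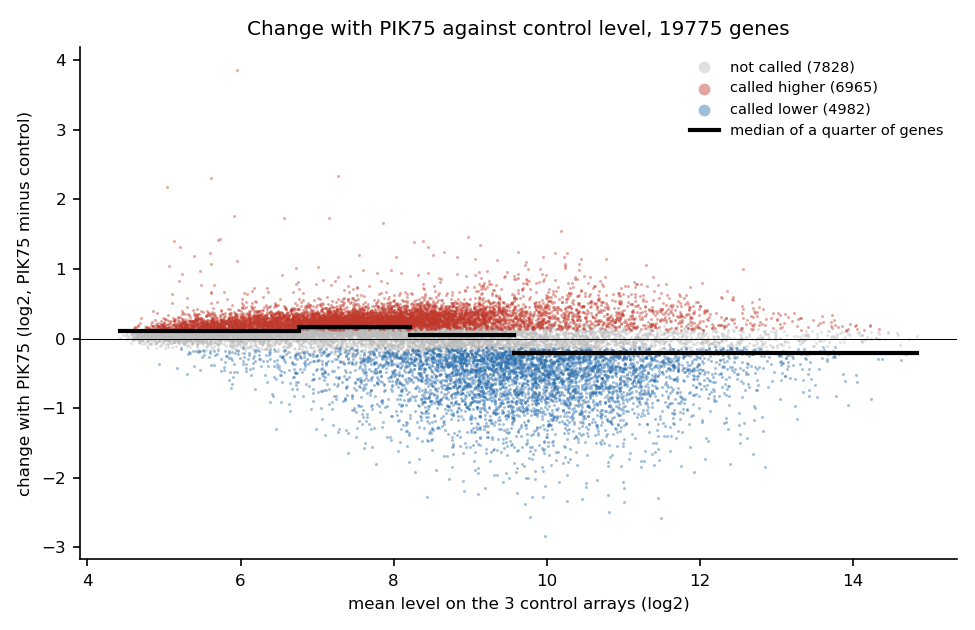
Change with PIK75 (log2, PIK75 minus control) of each of 19775 genes against its mean level on the 3 control arrays (log2); red points were called higher (6965), blue points lower (4982) and grey points not called, and black bars are the median of each of 4 bins of control level. The median falls from 0.12 in the dimmest bin to -0.20 in the brightest, and the changes beyond 2-fold are mostly falls.

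Arrays of a group resembled each other more than those of the other group: Pearson's r across genes, which are not independent replicates, was 0.9977 to 0.9983 among controls, 0.9964 to 0.9976 among PIK75 arrays and 0.9724 to 0.9786 between them. The PIK75 arrays had a narrower interquartile range of gene values (2.48 to 2.57) than the controls (2.78 to 2.83). The 3' minus 5' signal of the actin control probe sets, a measure of RNA integrity and labelling, was 0.24, 0.29 and 0.44 on the control arrays and 0.47, 0.54 and 1.13 on the PIK75 arrays, with replicate 5 highest. Without that PIK75 array 5926 genes were called higher (30%) and 4699 lower (23.8%), and with the actin value as a covariate 4510 (22.8%) and 4257 (21.5%). Of the genes named in the text, 7 lost their call with the actin covariate and 3 without that array. RMA forces the arrays to similar distributions, which hides any shift shared by most genes. Centring on the hybridization spikes, controls added after labelling that were 0.35 higher on the PIK75 arrays, moved the median of all genes from 0.09 to -0.26. On that scale 386 genes were called higher (1.95%) and 13108 lower (66.3%), and with the poly-A spikes, added to the RNA before labelling, 2536 (12.8%) and 5279 (26.7%). Every change is 0.35 lower with the hybridization spikes, so counts of falls grow, and counts of rises are given with them where a list rests on rises.

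The largest falls were in single genes of varied function. TPH1, tryptophan hydroxylase, which starts serotonin synthesis, measured 9.80, 9.90 and 10.23 on the control arrays and 7.30, 6.98 and 7.16 on the PIK75 arrays. All PIK75 values lay below all control values (log2 change -2.83, SE 0.115, adjusted p = 2.63e-09). CALB1, the calcium buffer calbindin, measured 11.51, 11.43 and 11.55 on the control arrays and 8.87, 8.95 and 8.95 on the PIK75 arrays. The gap was far wider than the spread within either group (log2 change -2.57, SE 0.0522, adjusted p = 4.5e-11). PCP4, a calmodulin-binding peptide of neurons, measured 10.24, 10.29 and 10.27 on the control arrays and 7.87, 7.99 and 7.95 on the PIK75 arrays, again with no overlap (log2 change -2.33, SE 0.0525, adjusted p = 8.03e-11).

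BNIP3L, a receptor that marks mitochondria for autophagy, measured 11.07, 11.30 and 10.64 on the control arrays and 8.21, 9.13 and 8.66 on the PIK75 arrays. Its PIK75 values were the most scattered of these genes and still lay below every control (log2 change -2.34, SE 0.207, adjusted p = 1.17e-06). DEPTOR, a subunit that restrains mTOR, measured 8.42, 8.56 and 8.34 on the control arrays and 6.35, 6.28 and 5.86 on the PIK75 arrays. The 3 PIK75 arrays were low, replicate 5 the lowest (log2 change -2.28, SE 0.11, adjusted p = 7.6e-09). Further falls of more than 4-fold came in DCAF16, a substrate receptor of a cullin ubiquitin ligase (-2.38), the long noncoding RNA DRAIC (-2.30), the neural gene MTURN (-2.29), HIBCH, an enzyme of valine breakdown (-2.28), and STARD4, a cholesterol carrier (-2.25). The same holds for FREM2, a basement membrane protein (-2.22), the receptor phosphatase PTPRG (-2.15), SLC12A2, a sodium, potassium and chloride cotransporter (-2.14), and ESYT2, a tether between endoplasmic reticulum and plasma membrane (-2.15). The steady falls of PLCB1, a phospholipase C (-1.92, SE 0.0498), and of RCAN2, a regulator of the phosphatase calcineurin (-1.78, SE 0.0516), were among the 10 largest moderated t values.

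The probe set that stood for a gene did not always speak for all of them. Of 753 genes called with a change of at least 2-fold, 555 had more than 1 probe set, and in 145 of those another probe set was called the opposite way. PDK1, the kinase that switches off pyruvate dehydrogenase, fell by 2.56 at its brightest probe set, while a dimmer one rose by 0.17 and another did not pass (-0.12, adjusted p = 0.193). CLDN11, a tight junction protein, fell by 2.49, and 2 dimmer probe sets rose by 0.30 and 0.21. PRKCA, a protein kinase C, fell by 2.27, another probe set fell by 0.81, another rose by 0.28 and 2 were not called. None of the other probe sets was called for ALDH5A1, BHLHE40, CFAP43, DEPTOR, EPB41L4A-AS1, GTF2H5, HERPUD1, HK2, HSD17B4, KDM3A, LARP7, MAML2, MED20, MT1G, NDC1, P4HA1, PENK, PIK3CB, PIK3CD, PIK3R4, RCAN3, S100A10, SLU7, SPRED2, TBC1D7, TP53INP1 and TSC2, so that each of these changes, named here or below, rests on 1 probe set.

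AMDHD1, an enzyme of histidine breakdown, had the largest rise measured, although its control level lies in the dimmest bin, so that the size of the rise is uncertain. It measured 5.98, 5.77 and 6.10 on the control arrays and 10.05, 9.75 and 9.62 on the PIK75 arrays, so that every PIK75 array lay far above the controls (log2 change 3.86, SE 0.11, adjusted p = 3.38e-10). ZSCAN16-AS1, an antisense RNA, measured 7.34, 7.18 and 7.31 on the control arrays and 9.83, 9.41 and 9.59 on the PIK75 arrays. All 3 PIK75 arrays were high (log2 change 2.33, SE 0.11, adjusted p = 6.42e-09), but 2 other probe sets of this gene were not called (-0.10 and -0.09). LEFTY1, a secreted antagonist of the growth factor Nodal, measured 7.15, 7.10 and 7.21 on the control arrays and 8.91, 8.79 and 8.95 on the PIK75 arrays, with little spread within groups (log2 change 1.73, SE 0.0595, adjusted p = 1.02e-09).

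Other rises from a dim start, of equally uncertain size, were in LINC00326 (2.31), ZC3H12D, a zinc finger protein of the RNase family of regnases (2.17), the axoneme gene CFAP43 (1.76), ALDH8A1, an aldehyde dehydrogenase (1.73), and MGARP (1.31). Among genes with a control level of at least 10, large rises were in SLC3A2 (1.55, taken up below), the splicing factor SLU7 (1.23), CDCA3 (1.23), which helps cells into mitosis, UQCC4 (1.17), which helps assemble respiratory complex III, CDCA5, which protects sister chromatid cohesion (1.15), MIEF1, a recruiter of the mitochondrial fission machinery (1.08), and the RNA genes EPB41L4A-AS1 (1.06) and LINC00261 (1.05). NUP58, a nucleoporin, rose by 1.46 at its brightest probe set but fell by 0.59 and 1.02 at 2 others, and averaging its probe sets left no call (-0.03, adjusted p = 0.729).

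**Figure D2:**
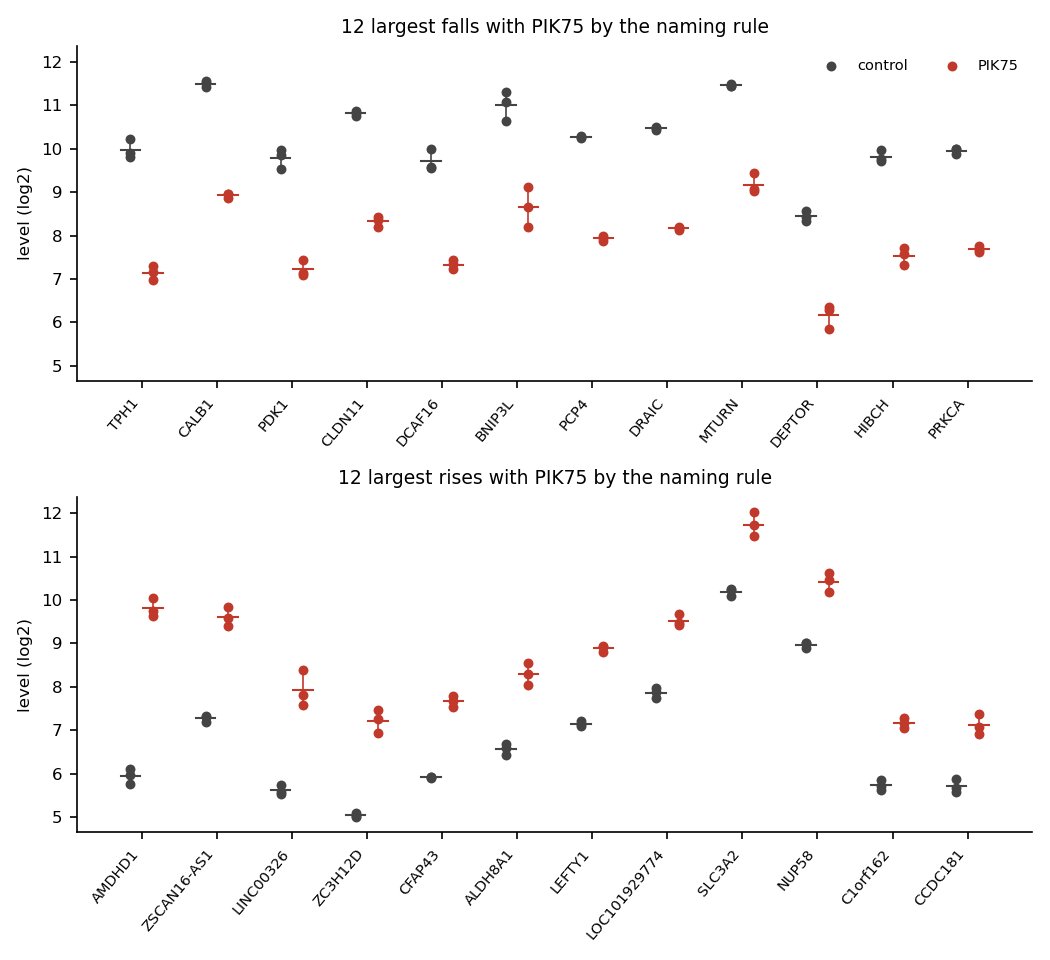
Level (log2) of the 12 genes with the largest falls (top) and the 12 with the largest rises (bottom) on each of the 3 control arrays (dark) and 3 PIK75 arrays (red); the bar is the mean and the whisker the SD. No PIK75 point overlaps a control point in any of these genes, which the choice of genes required.

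Genes of the targeted enzyme moved in both directions. Of 7 measured catalytic and regulatory subunits of class I PI3K, 3 were called lower and 2 higher, against 25.2% and 35.2% of all genes. The catalytic PIK3CA and the regulatory PIK3R2 were not among these 7, so nothing is said of them. The list of 9 genes also holds PIK3R4 and PIK3IP1, and in it 5 were lower and 2 higher (median -0.27), but 3 and 3 with probe sets averaged (median -0.04). PIK3R3, a regulatory subunit, measured 11.40, 11.41 and 11.40 on the control arrays and 9.62, 9.55 and 9.58 on the PIK75 arrays. The controls were nearly identical and all PIK75 values lower (log2 change -1.82, SE 0.0534, adjusted p = 3.89e-10). PIK3CB, a catalytic subunit and the known target of TGX221, measured 8.32, 8.28 and 8.38 on the control arrays and 6.96, 7.09 and 7.13 on the PIK75 arrays, without overlap (log2 change -1.27, SE 0.0572, adjusted p = 4.92e-09). The change with TGX221 was -0.13 for PIK3R3 and -0.12 for PIK3CB.

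Of the remaining subunits, the regulatory PIK3R1 fell by 0.79. PIK3R4, which serves the class III enzyme, changed by -0.33, a call lost with the mean of its probe sets. PIK3IP1, an inhibitor of the enzyme, changed by -0.27, with another probe set higher, and its call was lost with the mean of probe sets and with the actin covariate. The catalytic PIK3CD rose by 0.44, but this call was lost with centring on the hybridization spikes. PIK3R6 changed by 0.18, a value that lost its call with poly-A centring and with cyclic loess and turned into a called fall with the hybridization spikes. PIK3CG (0.14) and PIK3R5 (0.05) were not called, and with the hybridization spikes both were called lower.

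Among 24 phosphoinositide phosphatases, 14 were lower and 3 higher (median -0.19, -0.06 with probe sets averaged). FIG4, which acts on endosomal lipids, fell by 1.59, INPP4A by 1.45 and the myotubularin MTMR2 by 0.77, while INPP5E, the phosphatase of cilia, rose by 0.96. The AKT, mTOR and TSC list had 13 of 29 members lower and 7 higher (median -0.13, -0.08 with probe sets averaged, control level 9.68). That is a smaller share of falls than in the brightest bin of all genes, where this level lies (53.6% lower, 20.3% higher). Beside DEPTOR, falls were in TBC1D7, the small subunit of the TSC complex (-1.11), and in RRAGB, a GTPase that brings mTOR to lysosomes (-0.89). TSC2, the subunit that shuts off the GTPase above mTOR, rose by 0.66. FOXO factors and growth arrest genes had 15 of 24 lower and 5 higher (median -0.34, control level 9.57), with SESN3, a sestrin, at -1.82, YPEL2 at -1.30 and FOXO3 itself at -0.61, while CREBRF, a regulator of stress-induced transcription, rose by 0.99.

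HIF1 is the transcription factor that answers low oxygen, and the list of its targets outside glycolysis, which also holds its own subunits and regulators, had the lowest median of the lists. Of 32 measured members 22 were lower and 3 higher, 17 of them lower by at least 2-fold, and the median change was -1.03, control level 9.73 (with the mean of each gene's probe sets -0.44). The median change of the same genes with TGX221 was -0.33, against 0.00 over all genes. HIF1A, the oxygen-regulated subunit itself, changed by -0.18 with PIK75, a call lost with the actin covariate, with cyclic loess, with the replicate block and without any 1 of 3 arrays (PIK75 replicates 3 and 5, control replicate 5).

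DDIT4, an inhibitor of mTOR made under stress, measured 12.37, 12.48 and 12.34 on the control arrays and 10.60, 10.80 and 10.38 on the PIK75 arrays. All PIK75 arrays were low (log2 change -1.80, SE 0.148, adjusted p = 6.11e-07). ANKRD37, a small ankyrin repeat protein, measured 9.37, 9.36 and 9.09 on the control arrays and 7.98, 8.06 and 8.16 on the PIK75 arrays, without overlap (log2 change -1.21, SE 0.102, adjusted p = 8.03e-07). Another probe set of ANKRD37 was not called (0.22). For TGX221 the change of ANKRD37 was -0.47, also called (adjusted p = 0.0486). VEGFA, the growth factor of blood vessels, measured 11.05, 11.38 and 9.97 on the control arrays and 8.81, 9.93 and 8.17 on the PIK75 arrays. Replicate 3 was highest and replicate 5 lowest in both groups, the groups did not overlap, and the standard error was correspondingly wide (log2 change -1.83, SE 0.434, adjusted p = 0.00338). The call of VEGFA was lost with the actin covariate, and its 3 other probe sets were not called (-0.22, -0.45 and -0.17).

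FAM162A, a mitochondrial protein, fell by 1.84, and the mitophagy receptor BNIP3 by 1.49. The oxygen sensors that mark HIF1 for destruction did not move together: EGLN3 fell by 1.56, while EGLN2 rose by 0.52, a call lost with the hybridization spikes. The collagen hydroxylase P4HA1 (-1.50), the repressor BHLHE40 (-1.24), NDRG1 (-1.24), the cross-linking enzyme LOX (-1.13) and the histone demethylase KDM3A (-1.05) were lower too.

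A pair of promoters from this list is printed because both hold the letters that HIF1 is known to bind, ACGTG, searched on both strands and set in capitals. They span 250 bases before to 50 after the first listed start in RefSeq (GRCh38.p14). ANKRD37 lies at chr4:185396591-185396890 on the plus strand and BNIP3 at chr10:131981874-131982173 on the minus strand, each written 5′ to 3′ along its gene.
ANKRD37: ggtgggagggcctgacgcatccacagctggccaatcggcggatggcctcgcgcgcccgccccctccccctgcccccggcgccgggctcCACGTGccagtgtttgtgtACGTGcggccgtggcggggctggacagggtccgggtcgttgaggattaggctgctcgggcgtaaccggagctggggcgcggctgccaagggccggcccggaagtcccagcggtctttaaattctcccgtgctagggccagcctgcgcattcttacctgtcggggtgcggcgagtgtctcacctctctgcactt
BNIP3: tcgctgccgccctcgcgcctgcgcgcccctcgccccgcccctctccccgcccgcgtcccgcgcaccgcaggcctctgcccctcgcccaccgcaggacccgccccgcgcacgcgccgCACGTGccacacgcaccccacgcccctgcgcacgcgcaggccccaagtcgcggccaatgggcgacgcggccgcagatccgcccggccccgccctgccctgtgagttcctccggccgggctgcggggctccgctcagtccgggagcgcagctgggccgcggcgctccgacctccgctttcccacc
The palindrome CACGTG, known as the E-box, contains these letters on both strands, so that each of the palindromes shown counts as a match of both motifs. Of 27 list members with a listed promoter 14 held ACGTG (51.9%), against 24.1% of the 15384 array genes with one and 21.6% of all 27305 promoters. The share was 30.4% in genes that fell at least 2-fold, 45.9% in genes that rose at least 2-fold and 47.4% in the lysosome list. This is a description of letters and not of binding.

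In the list of glycolysis and glucose uptake, 17 of 26 genes were lower and 2 higher (median -0.43, -0.22 with probe sets averaged, control level 10.41). HK2, the hexokinase bound to mitochondria, measured 11.09, 11.55 and 9.91 on the control arrays and 8.92, 9.57 and 9.05 on the PIK75 arrays. Control replicate 5 lay closest to the PIK75 arrays and did not overlap them (log2 change -1.67, SE 0.335, adjusted p = 0.0011). GPD1L, which feeds the glycerol phosphate shuttle, fell by 1.45, the aldolase ALDOC by 1.45, the regulator PFKFB3 by 1.16, phosphoglycerate kinase PGK1 by 0.95 and lactate dehydrogenase LDHA by 0.87. The call of PFKFB3 was lost with the actin covariate, under which 11 members of the list were lower. GAPDH (-0.10) and LDHB (-0.04) were not called, and both were called lower with the hybridization spikes.

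**Figure D3:**
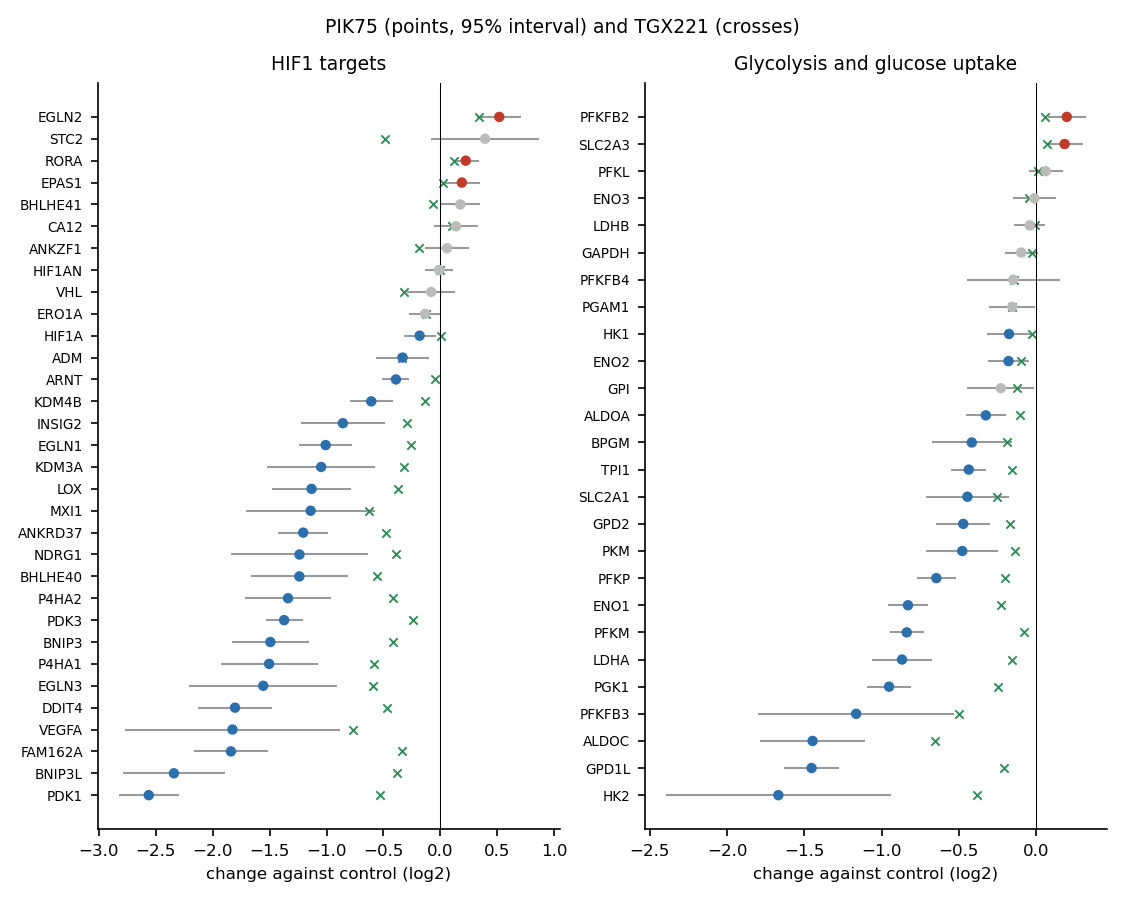
Change against control (log2) of each measured HIF1 target (left) and gene of glycolysis and glucose uptake (right); points are PIK75 with the 95% interval of the fit (blue lower, red higher, grey not called) and green crosses are TGX221, given at another dose. 22 of 32 HIF1 targets and 17 of 26 glycolysis genes lie on the lower side with a call for PIK75.

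The tricarboxylic acid cycle and pyruvate list had 17 of 33 members lower and 6 higher (median -0.25, -0.16 with probe sets averaged, control level 10.79). PDHB, a subunit of pyruvate dehydrogenase, fell by 1.59, and PDK3, a kinase that inhibits it, by 1.37. In the respiratory chain and ATP synthase, 25 of 51 were lower and 4 higher, and the median change was -0.12 at a control level of 12.49. UQCRC2 of complex III (-1.21) and NDUFB8 of complex I (-0.83) fell most there. Both lists are near the share of lower genes in the brightest bin of all genes (53.6%).

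Most genes of cholesterol supply were lower. Cholesterol synthesis and uptake had 18 of 25 members lower and 2 higher (median -0.56, control level 10.15). HMGCS1, the synthase that opens the pathway, measured 11.26, 11.28 and 11.31 on the control arrays and 9.66, 9.71 and 9.64 on the PIK75 arrays. Neither group spread by more than 0.1, and the PIK75 arrays lay well below (log2 change -1.61, SE 0.0505, adjusted p = 5.63e-10). STARD4 measured 10.85, 10.86 and 10.70 on the control arrays and 8.49, 8.57 and 8.60 on the PIK75 arrays, also without overlap (log2 change -2.25, SE 0.058, adjusted p = 1.65e-10). SQLE, squalene epoxidase, fell by 1.64 and ACAT2 by 1.17. The changes with TGX221 were -0.09 for HMGCS1, -0.31 for STARD4 and -0.09 for SQLE.

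The HMGCS1 promoter is shown because 16 of 23 members of the cholesterol list with a promoter (69.6%) held a CCAAT box, the letters CCAAT or their complement ATTGG, against 36.1% of array genes. A sterol element, searched as TCACNCCAC, was found in 1 of them. HMGCS1 lies at chr5:43313363-43313662 on the minus strand, and its 2 CCAAT boxes, both on the opposite strand, are in capitals.
HMGCS1: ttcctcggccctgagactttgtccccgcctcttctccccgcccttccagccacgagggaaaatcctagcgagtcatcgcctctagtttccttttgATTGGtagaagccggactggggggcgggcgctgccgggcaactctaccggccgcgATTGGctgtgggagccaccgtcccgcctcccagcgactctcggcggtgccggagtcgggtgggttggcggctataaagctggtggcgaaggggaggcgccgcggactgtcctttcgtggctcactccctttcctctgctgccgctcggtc

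Fatty acid synthesis and desaturation had 15 of 24 members lower and 4 higher (median -0.29, -0.17 with probe sets averaged, control level 9.78), with the desaturase SCD at -1.14 and the elongases ELOVL2 and ELOVL7 at -0.94 and -0.90. Oxidation of fatty acids and peroxisomes was more mixed, 17 of 39 lower and 6 higher. Peroxisomal HSD17B4 (-1.31), mitochondrial DECR1 (-1.30) and the peroxisome assembly factor PEX3 (-1.29) fell. Antioxidant genes of the NRF2 list were 20 of 34 lower and 4 higher (median -0.28, control level 10.61), against 53.6% lower in the brightest bin of all genes. The falls included glutathione reductase GSR (-1.09) and MGST1, a membrane glutathione transferase (-0.96).

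Of 27 nucleotide synthesis genes, which make the building blocks of nucleic acids, 16 were lower and 3 higher (median -0.25, control level 10.24). In the brightest bin of all genes, where that level lies, 53.6% were lower. RRM2, a subunit of ribonucleotide reductase, fell by 1.43, CTPS1, which makes CTP, by 1.32 and the purine enzyme PFAS by 1.17, while the thymidylate kinase DTYMK rose by 0.66. In serine, glycine and one-carbon metabolism 8 of 21 were lower and 4 higher. Methionine synthase MTR (-1.26) and GCSH of glycine cleavage (-1.22) fell, and PHGDH, which starts serine synthesis, rose by 0.55.

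The transcription machinery split within its complexes. P-TEFb pairs the kinase CDK9 with a cyclin T and is held inactive by HEXIM proteins on a small nuclear RNA. CDK9 measured 9.69, 9.59 and 9.58 on the control arrays and 10.44, 10.28 and 10.13 on the PIK75 arrays. All PIK75 arrays were above the controls (log2 change 0.66, SE 0.0706, adjusted p = 6.35e-06). CCNT1, its cyclin, rose by 0.88. HEXIM1 measured 9.55, 9.64 and 9.61 on the control arrays and 7.74, 7.70 and 7.60 on the PIK75 arrays, with all PIK75 values below (log2 change -1.92, SE 0.0609, adjusted p = 5.96e-10). MEPCE (-0.49) and LARP7 (-0.33), parts of the inactive complex, were lower as well, LARP7 without a call for the mean of its probe sets. With TGX221 the changes were -0.19 for CDK9 and -0.13 for HEXIM1.

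Over the 32 genes of P-TEFb, elongation and termination, 15 were lower and 9 higher (median -0.11, -0.06 with probe sets averaged, control level 9.79). The brightest bin of all genes, where that level lies, had 53.6% lower and 20.3% higher. CDC73 of the PAF complex fell by 1.00, the pausing factor NELFCD by 0.81 and MLLT3 of the super elongation complex by 0.71. ELL2 changed by -1.33 and AFF1 by -1.19, each with 1 other probe set called higher. General factors and Mediator split likewise: GTF2F1 of TFIIF rose by 0.86 and MED26 by 0.70, while GTF2H5 of TFIIH fell by 1.21 and MED20 by 1.00. The 12 measured subunits of RNA polymerase II itself lay between -0.41 and 0.20.

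SR proteins take part in the choice of exons, and the kinases that act on them and some SR proteins went opposite ways. All 4 CLK kinases, which phosphorylate SR proteins, were higher, by 0.51 to 0.62. CLK1 measured 8.58, 8.58 and 9.13 on the control arrays and 9.56, 9.41 and 9.20 on the PIK75 arrays. Control replicate 5 came close to PIK75 replicate 5 without overlap (log2 change 0.62, SE 0.146, adjusted p = 0.00302). The call of CLK4 (0.57) was lost with the hybridization spikes. SRSF6 measured 10.91, 10.85 and 11.04 on the control arrays and 9.63, 9.59 and 9.92 on the PIK75 arrays, every PIK75 array being low (log2 change -1.23, SE 0.0841, adjusted p = 1.25e-07). SRSF7 fell by 1.07. Of the whole list of 25, 12 were higher and 11 lower, and 2 and 14 with the hybridization spikes.

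The spliceosome core had 20 of 35 members higher and 7 lower (median 0.14, control level 11.10), and with the hybridization spikes 5 were higher and 20 lower. SNRNP70 of the U1 particle (0.69), SF3A2 of U2 (0.69) and PRPF3 of the U4/U6 particle (0.65) rose, and PRPF8, of the U5 particle, fell by 0.64. SNRNP48, of the minor spliceosome, rose by 1.34, and the helicases DDX23 and DDX41, both linked to splicing, by 1.06 and 1.00. Among hnRNP proteins, RNA-binding proteins that coat new transcripts, 11 of 22 were lower and 3 higher. Their median control level of 12.44 lies in the brightest bin, where 53.6% of all genes were lower. Probe sets of 1 gene disagreed here: HNRNPA1 rose by 1.01 at the brightest and fell by 0.68 and 0.63 at 2 others, a call lost with the mean of probe sets (-0.10), and HNRNPD fell by 1.33 at the brightest, by 1.23 to 2.03 at 4 others and rose by 0.85 and 0.18 at 2. HNRNPA3 fell by 1.02.

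**Figure D4:**
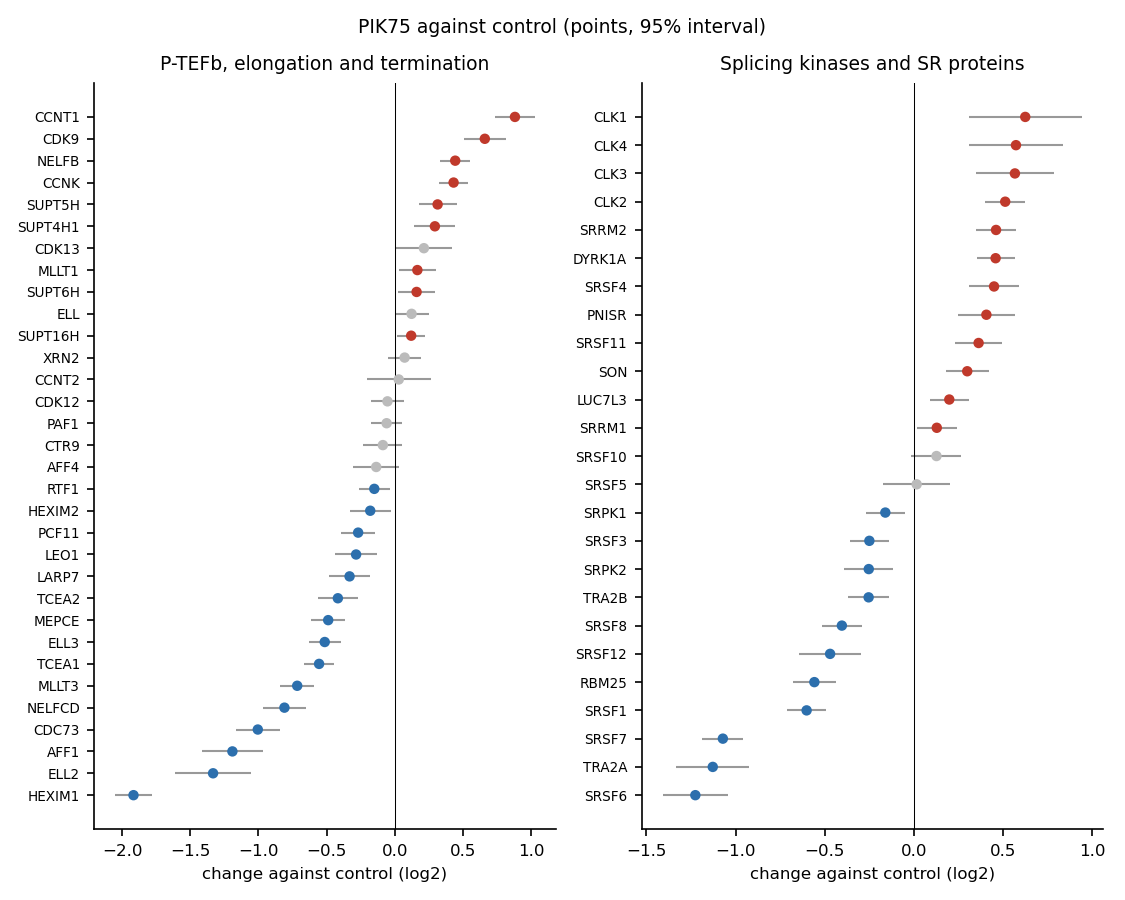
Change with PIK75 against control (log2, points) with the 95% interval of the fit for the 32 measured genes of P-TEFb, elongation and termination (left) and the 25 splicing kinases and SR proteins (right); blue is called lower, red higher and grey not called. CCNT1 and CDK9 lie at the high end and HEXIM1 at the low end on the left, the 4 CLK kinases at the high end and SRSF6 at the low end on the right.

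The nuclear pore list had 21 of 47 lower and 10 higher. Its median control level of 10.72 lies in the brightest bin, where 53.6% of all genes were lower. SEH1L (-1.30), NDC1 (-1.17) and NUP210 (-1.08) were at the low end of the list, while POM121 rose by 0.60. NUDT21, which picks poly-A sites, fell by 0.90, in a list of 3' end processing and decay with 14 of 36 lower and 10 higher.

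Lists of chromatin regulators differed. SWI/SNF and other remodellers, which slide or evict nucleosomes, had 20 of 29 lower and 4 higher (median -0.38, control level 10.00). The falls were led by SMARCA1 (-1.48), PBRM1 (-1.25) and EP400 (-1.04). For polycomb and DNA methylation the counts were 19 of 27 lower and 6 higher (median -0.31, -0.15 with probe sets averaged, control level 10.31). The DNA methyltransferase DNMT3B fell by 1.08, TET2, which undoes methylation, by 0.87 and the histone chaperone RBBP7 by 0.82. The demethylase KDM1B (-1.30) and the deacetylases SIRT1 (-1.29) and HDAC9 (-1.24) were lower too, while BRD8, of an acetylase complex, rose by 0.75. In the list of acetylation writers and erasers 11 of 32 were lower and 9 higher (median -0.04, 0.03 with probe sets averaged, control level 9.58).

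Histone genes had 17 of 34 members higher and 3 lower at a median control level of 8.07. These shares are near the 50.2% higher and 10.9% lower of all genes in the second bin of control level. With the hybridization spikes 3 of the histone genes were higher and 17 lower. H2BC5 measured 9.91, 9.96 and 10.01 on the control arrays and 11.25, 11.18 and 10.95 on the PIK75 arrays, clear of the controls on every array (log2 change 1.17, SE 0.0747, adjusted p = 6.73e-08). H2BC6 rose by 0.80 and H2AC8 by 0.79. Histone genes resemble each other closely, and whether their probe sets separate them was not tested.

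Secretory and neural genes, the hallmark of this tumour type, were lower in part. Of the 16 neuroendocrine markers 11 were called lower and 1 higher (median -0.34, -0.22 with probe sets averaged). These markers are bright (median control level 11.54), and in the brightest bin of all genes 53.6% were lower and 20.3% higher. The changes of INSM1 (-0.08), CHGA (-0.05) and SEZ6 (-0.04) were not called, though each was called lower with the hybridization spikes. The single marker called higher, SYP (0.21), was lost with poly-A and hybridization spikes, with the actin covariate and without any 1 of 4 single arrays (control replicates 1 and 5, PIK75 replicates 3 and 5).

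Several steps of amine synthesis were lower. DDC, the decarboxylase that finishes serotonin and dopamine, measured 12.59, 12.55 and 12.60 on the control arrays and 11.37, 11.36 and 11.38 on the PIK75 arrays. The values within a group differed by under 0.1, and the groups were far apart (log2 change -1.21, SE 0.05, adjusted p = 2.73e-09). PTS (-1.03) and GCH1 (-0.74), which make the cofactor that TPH1 needs, and SLC18A1, which loads amines into vesicles (-0.81), were lower. SLC6A4, the serotonin transporter, rose by 0.67. Over the whole list of 18 genes 6 were lower and 8 higher, and 12 and 1 with the hybridization spikes. Of 28 granins, prohormones and processing enzymes 11 were lower, among them neurotensin NTS (-1.33), the amidating enzyme PAM (-1.17) and proenkephalin PENK (-0.84), and 9 were higher, with urocortin UCN at 0.75.

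Vesicle release had 24 of 51 members lower, 7 by at least 2-fold, and 12 higher (median -0.14, -0.08 with probe sets averaged). SNAP25, a fusion protein of secretory vesicles, measured 11.45, 11.39 and 11.45 on the control arrays and 9.99, 9.91 and 9.90 on the PIK75 arrays, without overlap (log2 change -1.50, SE 0.0529, adjusted p = 1.17e-09). PCLO, a scaffold of release sites, fell by 1.84, and complexin CPLX1 by 1.11. Neural adhesion and axon guidance had 30 of 56 lower and 10 higher (median -0.31, -0.15 with probe sets averaged), led by the guidance cue SEMA3C (-1.93), the receptor PLXNC1 (-1.72) and the synaptic adhesion protein NRXN3 (-1.63). Lineage factors were split, 7 of 32 lower and 10 higher (21 and 1 with the hybridization spikes), with SOX11 at -1.51 and ONECUT2 at 0.53. These counts are near the shares over all genes, 25.2% lower and 35.2% higher (66.3% and 1.95% with the hybridization spikes).

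Calcium handling held some of the deepest falls in a list of otherwise mixed direction (19 of 45 lower, 10 higher). Beside CALB1 and PCP4 they were in RCAN2, which measured 10.76, 10.77 and 10.88 on the control arrays and 9.05, 8.99 and 9.04 on the PIK75 arrays. The arrays of a group differed by little and the groups did not overlap (log2 change -1.78, SE 0.0516, adjusted p = 3.76e-10). RCAN3 fell by 1.49 and the S100 proteins S100A11 and S100A10 by 1.36 and 1.22, while RCAN1 rose by 0.43, a call lost with the hybridization spikes. Among voltage-gated channels the sodium channel SCN9A fell by 1.69. Of 46 integrin, matrix and collagen genes 23 were higher, none by 2-fold, and 9 lower, 5 by at least 2-fold. Their median control level of 8.17 lies in the second bin, where 50.2% of all genes were higher. With the hybridization spikes 0 of the 46 were higher and 23 lower. The collagen COL4A6 (-1.71) and the laminins LAMC1 (-1.63) and LAMB1 (-1.41), parts of basement membranes, fell. CD44 changed by -2.06 at its brightest probe set, with 4 of 12 others called higher and 2 lower.

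More genes of the amino acid stress response were higher than lower. ATF4 is the factor that cells make when amino acids run short or proteins misfold, and of 29 measured genes of its response 18 were higher and 4 lower (median 0.36). With the hybridization spikes 9 were higher and 9 lower, and the median was 0.01. SLC3A2, which carries light chains of amino acid exchangers to the surface, measured 10.26, 10.22 and 10.09 on the control arrays and 12.03, 11.72 and 11.46 on the PIK75 arrays. PIK75 replicate 1 was highest and replicate 5 lowest, all above the controls (log2 change 1.55, SE 0.108, adjusted p = 1.48e-07). TRIB3, a pseudokinase that feeds back on the pathway, measured 8.40, 8.35 and 8.42 on the control arrays and 9.96, 9.77 and 9.66 on the PIK75 arrays, without overlap (log2 change 1.41, SE 0.0702, adjusted p = 9.21e-09).

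SLC7A5, the partner chain of SLC3A2, rose by 0.73, ATF4 itself by 0.57, the sestrin SESN2 by 0.62, HERPUD1 of protein quality control by 0.62, CEBPB by 0.58 and CTH, which makes cysteine, by 0.59. The 4 members lower on this list were VEGFA and DDIT4, which HIF1 also drives, the cystine carrier SLC7A11 (-0.57) and the amino acid carrier SLC38A2 (-0.15), whose call was lost with the actin covariate, with cyclic loess and without control replicate 3. The changes of SLC3A2, TRIB3 and ATF4 with TGX221 were 0.04, 0.20 and 0.04.

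The SLC3A2 promoter is printed because it holds the letters known for ATF4, TGATGNAA, here on the opposite strand and in capitals. It lies at chr11:62881449-62881748 on the plus strand.
SLC3A2: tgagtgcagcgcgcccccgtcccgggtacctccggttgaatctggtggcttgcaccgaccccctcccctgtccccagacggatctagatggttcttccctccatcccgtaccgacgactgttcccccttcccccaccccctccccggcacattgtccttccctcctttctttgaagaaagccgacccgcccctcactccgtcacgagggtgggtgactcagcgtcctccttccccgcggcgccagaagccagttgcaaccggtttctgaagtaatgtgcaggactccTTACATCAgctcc
Of 25 list members with a promoter 5 held these letters (20%), against 2.62% of array genes and 3.67% of all promoters.

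Most metallothioneins, small proteins that bind zinc and copper, were higher. Of 8 measured, 7 were higher and MT3, the neural form, was not called (0.00). MT1H measured 9.91, 10.01 and 9.80 on the control arrays and 10.40, 11.02 and 10.73 on the PIK75 arrays. PIK75 replicate 3 was highest and replicate 1 lowest, all above the controls (log2 change 0.81, SE 0.127, adjusted p = 0.000168). MT2A measured 11.05, 11.13 and 10.79 on the control arrays and 11.35, 11.85 and 11.70 on the PIK75 arrays, without overlap and with the same order of PIK75 arrays (log2 change 0.64, SE 0.117, adjusted p = 0.000588). MT1G rose by 0.80, MT1F by 0.68 and MT1X by 0.67, and the calls of MT1E (0.36) and MT1M (0.19) were lost with the hybridization spikes, that of MT1M also with poly-A spikes, with cyclic loess, with the actin covariate and without any 1 of 4 arrays (control replicates 1 and 5, PIK75 replicates 3 and 5), while MT3 was then called lower. These genes are near copies, and whether their probe sets separate them was not tested. Zinc carriers split: SLC30A1, which exports zinc from the cell, rose by 0.86 and SLC39A7, which releases it from the endoplasmic reticulum, by 0.89, while the importer SLC39A10 fell by 0.91.

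Metallothionein promoters are shown for the letters of the metal response element, TGCACNC or TGCGCNC on either strand, in capitals. MT1H lies at chr16:56669564-56669863 and MT2A at chr16:56608334-56608633, both on the plus strand.
MT1H: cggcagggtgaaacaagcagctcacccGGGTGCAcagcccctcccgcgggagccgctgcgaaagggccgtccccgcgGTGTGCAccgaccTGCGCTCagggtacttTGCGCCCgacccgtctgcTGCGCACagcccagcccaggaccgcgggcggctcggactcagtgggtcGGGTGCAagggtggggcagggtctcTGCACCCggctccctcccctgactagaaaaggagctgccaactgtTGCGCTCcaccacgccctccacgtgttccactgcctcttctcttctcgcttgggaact
MT2A: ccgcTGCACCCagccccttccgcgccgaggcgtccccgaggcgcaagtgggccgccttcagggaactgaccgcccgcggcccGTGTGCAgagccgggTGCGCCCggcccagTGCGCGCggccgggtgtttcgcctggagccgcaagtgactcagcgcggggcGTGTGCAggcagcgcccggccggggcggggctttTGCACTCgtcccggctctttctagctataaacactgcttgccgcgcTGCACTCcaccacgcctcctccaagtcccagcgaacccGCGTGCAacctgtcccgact
Each holds 8 matches, and all 3 metallothioneins with a promoter in the table held at least 1, against 35% of array genes and 29.3% of all promoters.

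Protein folding genes were mixed. Of 37 cytosolic and mitochondrial heat shock genes 14 were higher and 8 lower, with HSPA4 (0.72) and mitochondrial HSPA9 (0.69) up and the small heat shock protein HSPB1 at -1.52. Under the hybridization spikes the counts were 3 higher and 20 lower. In the endoplasmic reticulum 15 of 39 were lower and 5 higher, with the oxidase ERO1B (-1.40) and DNAJC10 (-1.21) lowest. PSMG1, which helps build proteasomes, fell by 1.66, and PSME4, a proteasome activator, by 1.20.

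Genes of cell division were split. Mitosis had 16 of 46 members lower and 13 higher (median -0.01, -0.06 with probe sets averaged, control level 10.83). Falls were a smaller share here than in the brightest bin of all genes (53.6% lower, 20.3% higher). CDCA3 measured 10.08, 10.15 and 10.11 on the control arrays and 11.40, 11.38 and 11.26 on the PIK75 arrays. All PIK75 values were higher and close to each other (log2 change 1.23, SE 0.0655, adjusted p = 1.55e-08). CDCA5, the survivin gene BIRC5 (0.77) and the kinesin KIF18B (0.85) were higher, as was FOXM1, the factor that drives mitotic genes (0.68). The kinetochore gene SPC25 (-0.99) and the kinesin KIF15 (-1.31) were lower.

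The replication list had 28 of 52 genes lower and 11 higher (median -0.16, control level 10.53), a share near that of the brightest bin of all genes (53.6% lower). The clamp loader RFC3 fell by 1.33, the topoisomerase TOP2B by 1.23 and the polymerase subunit POLE2 by 1.17, whereas POLE3 of the same polymerase rose by 0.57. Cyclin CCNE2, of entry into S phase, fell by 1.43. In homologous recombination and Fanconi repair 16 of 26 were lower and 3 higher (median -0.20, control level 9.58). NBN, which senses broken ends, fell by 1.16, and the kinases ATM and PRKDC by 0.93 and 0.84. Of 24 p53 targets 11 were lower and 8 higher, with TP53INP1 at -1.54, GADD45A at -1.35 and CDKN1A at -0.84.

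Other signalling genes gave single large changes within mixed lists. In the TGF-beta family list 13 of 32 were lower and 10 higher, LEFTY1 being the largest rise and the receptor ACVR1 at -1.02. Of 24 Notch genes 15 were lower and 4 higher (median -0.29, -0.03 with probe sets averaged), with the coactivator MAML2 at -1.12. The receptors IGF2R (-1.24), EPHB1 (-1.48) and EPHA7 (-1.29), the IGF-binding proteins IGFBP5 (-1.15) and IGFBP2 (-0.83), and the nuclear receptor ESRRG (-1.67) fell. The ERK phosphatase DUSP6 (0.56) and SPRED2 (0.72), an inhibitor of RAS signalling, rose.

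Of 50 cytoplasmic ribosomal protein genes 19 were called higher and 0 lower, all between -0.04 and 0.28, at a median control level of 13.91. With poly-A centring 0 were higher and 0 lower, and with the hybridization spikes 0 and 40. The mitochondrial ribosome had 28 of 71 lower and 18 higher, from MRPS6 at -1.23 to MRPS12 at 0.88. EIF2B2, a subunit of the exchange factor that the stress response inhibits, rose by 1.01. Ribosome biogenesis had 19 of 47 lower and 17 higher, with NOP2 at 0.74 and UTP18 at -1.04. In mitochondrial import and dynamics the protease LONP1 (0.76) and the DNA helicase TWNK (0.69) rose beside MIEF1, and DNM1L, the fission GTPase, fell by 0.93.

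Gene families read by symbol held many dim members. In the dimmest bin of all genes, where the median control levels of LINC genes and olfactory receptors lie, 33.5% were higher. Of 839 LINC genes 364 were higher and 36 lower, at a median control level of 6.22 and with a median change of 0.14. With the hybridization spikes 3 were higher and 506 lower. LINC00592, the brightest of them, fell by 1.39. Among 82 olfactory receptors 46 were higher by small amounts (median 0.17), which the hybridization spikes turn to 0 higher and 43 lower. OR51E1 (-1.85) and OR51E2 (-0.68) fell. Solute carriers, 350 in number, were 150 higher and 81 lower, and 9 and 202 with the hybridization spikes. Their median control level of 8.14 lies in the second bin, where 50.2% of all genes were higher. Further falls of single family members were in GPR160, an orphan receptor (-2.05), the protocadherin PCDH8 (-1.85), the receptor phosphatase PTPRZ1 (-1.75), RAB28 (-1.60), ALDH1A1, which makes retinoic acid (-1.56), ALDH5A1 (-1.41) and the keratins KRT15 (-1.21) and KRT8 (-0.97). The zinc finger genes ZNF510 (1.21) and ZNF581 (1.14) rose and ZNF165 fell (-1.73).

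Markers of other cell types were dim and many were not called: of myeloid markers 7 of 10 were higher and 0 lower (median 0.24), of fibroblast markers 7 of 11 and 1, of endothelial markers 3 of 10 and 1, of lymphocyte markers 3 of 11 and 0. For squamous epithelium the counts were 3 higher and 1 lower of 7, and for hepatocytes 3 and 0 of 8. With the hybridization spikes 0 myeloid and 0 fibroblast markers were higher. In the dimmest bin of all genes, where the median control levels of the lymphocyte and squamous lists lie, 33.5% were higher. The medians of the myeloid, fibroblast, endothelial and hepatocyte lists lie in the second bin, where 50.2% were higher. The bright exceptions POSTN (-0.86), CLDN5 (-0.80) and SFN (-0.58) fell.

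**Figure D5:**
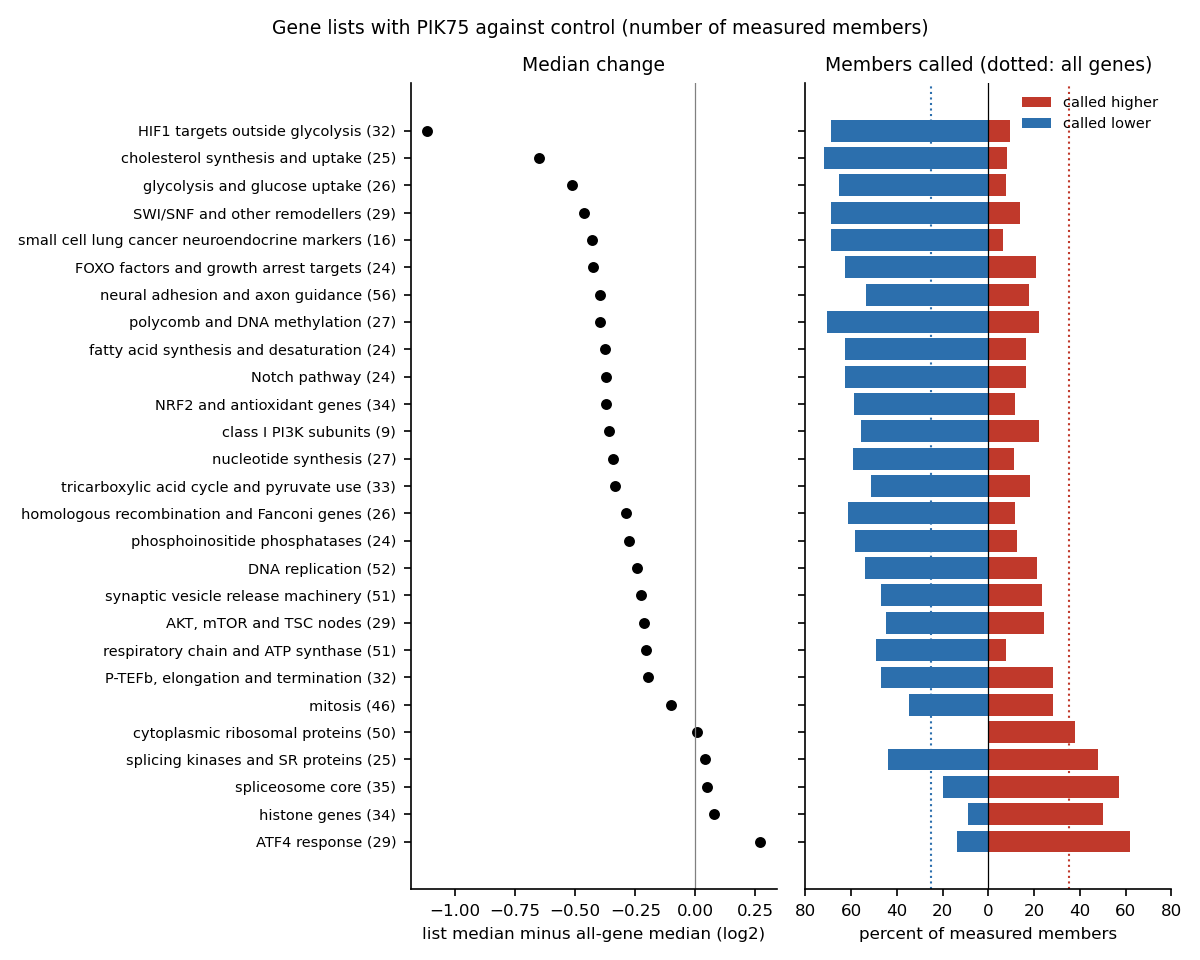
Left, median change with PIK75 (log2) of 27 gene lists minus the median of all genes; right, the percent of measured members called lower (blue, to the left) and higher (red, to the right), with the shares over all genes as dotted lines (25.2% and 35.2%). HIF1 targets have the lowest median and the ATF4 response the highest of the lists drawn. The red bars shrink with the hybridization spikes, where 9 of 29 ATF4 genes, 5 of 35 spliceosome genes and 3 of 34 histone genes were higher.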

How the data were processed

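Values were the deposited series table of 9 arrays with 54675 probe sets, on the log2 scale and made by the authors with RMA, per the submitters' processing notes, a method that corrects background, equalises distributions and summarises probes. Array platform annotation paired 41091 probe sets with 1 gene symbol, 1801 with several and 11721 with none, and 62 are controls. Each of 19775 genes was given its brightest single-symbol probe set (mean over 9 arrays). Symbols are those of the annotation and can be old. The 3 group means were fitted on all 9 arrays with limma 3.58.1 (lmFit and eBayes, R 4.3.3; 6 residual and 6.16 prior degrees of freedom), after a check on simulated data. P-values were adjusted by Benjamini-Hochberg over all genes, with a call at an adjusted p below 0.05. Python 3.11.15 (numpy 2.4.6, pandas 2.3.3, matplotlib 3.10.9) made summaries and figures. The small number of arrays limits the precision.

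Members and gene lists were chosen with earlier results of these data known. Named genes are the 20 highest and 20 lowest called changes with separate groups and a mean level of at least 6, the 10 highest and 10 lowest such genes with a control level of at least 10, up to 3 per direction for each list and 2 for each symbol family, all class I PI3K subunits and the 10 largest moderated t values. Not every gene admitted is printed. Other members of lists (among them ANKRD37, ATF4, MT2A, the CLK kinases and the markers without a call) were named after their values were seen. Lists are described by counts and medians, with no set test. Promoters came from RefSeq (GRCh38.p14), with the first listed start where a gene had several. A check of promoter GC content was void, as 77.8% of genes had a value and 80% were needed. Alternatives changed the scaling, the probe set rule, the genes and arrays used, the spread estimate and the threshold.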

Additional observations from a re-analysis of the deposited data

Results flagged for a closer look

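Probe sets that the annotation pairs with no gene symbol were outside the comparison of genes. Fitted in the same way on their own, 26 of the 11721 were called higher at least 2-fold with PIK75 than in the control arrays, and 94 lower, by limma with Benjamini-Hochberg adjustment. In all, 3448 were higher and 812 lower (36.3% called, against 60.4% of the 19775 named genes). Of the named genes, 0.243% rose and 3.57% fell at least 2-fold. The share of unnamed probe sets with such a rise was near that of named genes, and the share with such a fall was smaller. The largest log2 rise was 3.11 and the largest fall -2.87.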

How the results depend on the processing

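Direction and call of all 269 named genes were unchanged with array weights, with centring on the gene median and with the control and PIK75 arrays alone. Centring on the hybridization spikes turned 3 positive values (of which PIK3R6 alone was called) into called falls: PIK3CG (-0.21), PIK3R5 (-0.30) and PIK3R6 (-0.17). Testing for a minimum of 1.5-fold ended the call of 74, the most of any setting run. Genes called higher, 6965, became 386 with the hybridization spikes, 2536 with the poly-A spikes, 4312 with cyclic loess, 107 when a minimum of 1.5-fold was tested, 3165 without genes below the median level, 12393 over every probe set, 4401 at an adjusted p below 0.01 and 4510 with the actin covariate, which was chosen after seeing the data. Genes called lower, 4982, became 13108 with the hybridization spikes, 1141 with the minimum of 1.5-fold and 9661 over every probe set. Falls of at least 2-fold, 705, became 1788 with the hybridization spikes, 317 with the mean of probe sets and 1415 over every probe set. Rises of at least 2-fold, 48, became 15, 28 and 92 in that order, and 29 without genes below the median level. Leaving out 1 array gave 5598 to 6590 genes higher, 4644 to 4980 lower, 42 to 57 higher by 2-fold and 676 to 747 lower by 2-fold. Fewer or more features tested account in part for the counts without dim genes and over every probe set, and for the others the cause was not tested. With the replicate block, 6555 genes were higher, 4869 lower, 48 higher by 2-fold and 705 lower by 2-fold. Deviations of same-numbered control and PIK75 arrays from their group means were weakly correlated over all genes (r = -0.13, 0.12 and -0.05 for numbers 1, 3 and 5). Single genes such as VEGFA did have the same order of replicates in both groups. Whether same-numbered arrays shared a culture or batch was not tested. The block ended 1 call among the named genes, HIF1A. Dim genes have the least signal over background, and no detection call was used.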

Other observations

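Of 28 genes of the interferon response 13 were higher and 4 lower (median 0.15), and with the hybridization spikes 0 and 14. The median control level of this list, 7.73, lies in the second bin, where 50.2% of all genes were higher and 10.9% lower. IFIT1 (-0.75) and IFIT5 (-0.72), antiviral RNA-binding proteins, and the RNA sensor IFIH1 (-0.52) were lower, IFIT5 and IFIH1 at 1 probe set only. Of 20 genes of the NF-kappaB pathway, whose median control level (8.01) also lies in the second bin, 12 were higher and 3 lower. With the hybridization spikes the counts were 0 and 15. CHUK, a kinase that activates NF-kappaB, fell by 0.77.

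The autophagy list had 13 of 43 members higher and 12 lower, with the protease ATG4A at -1.11. The lysosome and V-ATPase list had 17 of 52 higher and 16 lower. The shares of both lists are near those of all genes (35.2% higher, 25.2% lower). The lysosomal enzymes GLA (-0.92) and NEU1 (-0.83) fell and the proton pump subunit ATP6V1E1 rose by 0.64. Of 35 claudin and epithelial adhesion genes 18 were lower and 7 higher, with the cadherins CDH1 at -1.11 and CDH2 at -0.99 (1 other probe set of each was not called) and CDH3 at 0.51, a call lost with the hybridization spikes. In the cilium and axoneme list 29 of 62 were lower and 13 higher, among them the transport gene IFT80 (-1.53) and the ciliary gate gene CEP290 (-1.06). Among amino acid transporters SLC38A6 (-1.31) and the lysosomal sensor SLC38A9 (-1.06, at 1 of 2 probe sets) were lower, while SLC3A2 and SLC7A5 were higher. Centring on the hybridization spikes gave 29 of the 43 autophagy genes and 36 of the 52 lysosome genes as lower. Both are near the share of all genes called lower on that scale (66.3%).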
